A study of Mus musculus with 24 samples.

Results

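Hox genes encode homeodomain transcription factors and lie in 4 clusters, A to D, in which genes with the same number in different clusters are paralogs. The Hox family was chosen with earlier results of these data known. Within it all genes were taken whose symbol on the array was Hoxa, Hoxb, Hoxc or Hoxd followed by a number, whatever their values. They came to 39 of the 18138 genes and 53 of the 25697 probes on the array: 11 genes and 20 probes of cluster A, 10 and 13 of cluster B, 9 and 11 of cluster C, and 9 and 9 of cluster D. Of these, 27 probes of 22 genes were detected on at least 3 of the 24 arrays and were tested.

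RNA came from mammary glands of female mice that were SNAI2+/+ (WT) or SNAI2 LacZ/LacZ (null), and each sample was read on 1 Illumina bead array. Snai2 encodes Slug, a zinc-finger repressor of the Snail family that binds E-box sequences. Luminal, basal and stromal cells, sorted by CD49f and Epcam, and unsorted cells of both genotypes gave 8 groups of 3 arrays. The comparisons ask which Hox genes mark each population and whether their levels differed without Slug. Age, strain, pooling of animals and the make-up of the LacZ allele are not given in the labels, and neither is whether replicates stem from different animals. Each p-value therefore reflects the scatter among these arrays alone, and that scatter may be technical.

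In the embryo the order of Hox genes along a cluster follows the order in which they are used along the body axis, and a cell's set of active Hox genes records its position. Adult fibroblasts are known to keep a Hox code of the body site they came from, which Polycomb and trithorax proteins hold off or on. In the mouse mammary gland Hoxa9, Hoxb9 and Hoxd9 are known to act together in the growth of the gland during pregnancy.

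The arrays had median raw intensities of 93.6 to 143.7 and detected 12634 to 15825 probes each. The sorted populations carried their markers: in WT basal over luminal cells 9 of 10 basal markers were higher and 10 of 11 luminal markers lower, and 14 of 14 fibroblast markers were lower in WT basal and in WT luminal than in stromal cells. Snai2 itself was not analysed here, so its level does not check the genotype labels. The third principal component of all tested probes other than Hox probes, with 9.8% of the variance, divided the arrays along a line that the labels do not name: WT replicates 1 and 2 of every population and null replicate 1 of the sorted populations (11 arrays) lay apart from the other 13. In the sorted populations, WT replicate 3 thus lies with null replicates 2 and 3.

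Of the Hox genes that differed between sorted WT populations, 5 had a start region at hand, and 4 of these are shown. Hoxa10 is not shown. RefSeq windows of 300 bases on GRCm38.p6, 250 before and 50 after the start of a gene, matched 22 of the 39 genes (24 windows). Hoxd8, Hoxa5 and Hoxa7 were higher in WT stromal than in luminal cells, and Hoxb4 was higher in luminal cells. The windows run from 5′ to 3′, and capitals mark CG dinucleotides, the targets of DNA methylation.
Hoxd8, chr2:74704365-74704664, plus strand: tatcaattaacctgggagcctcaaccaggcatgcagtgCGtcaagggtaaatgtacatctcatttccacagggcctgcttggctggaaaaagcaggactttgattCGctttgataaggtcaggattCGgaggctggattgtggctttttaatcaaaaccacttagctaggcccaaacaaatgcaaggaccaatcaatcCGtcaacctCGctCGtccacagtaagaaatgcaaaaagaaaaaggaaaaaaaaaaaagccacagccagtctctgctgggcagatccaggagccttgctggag
Hoxa5, chr6:52204538-52204837, minus strand: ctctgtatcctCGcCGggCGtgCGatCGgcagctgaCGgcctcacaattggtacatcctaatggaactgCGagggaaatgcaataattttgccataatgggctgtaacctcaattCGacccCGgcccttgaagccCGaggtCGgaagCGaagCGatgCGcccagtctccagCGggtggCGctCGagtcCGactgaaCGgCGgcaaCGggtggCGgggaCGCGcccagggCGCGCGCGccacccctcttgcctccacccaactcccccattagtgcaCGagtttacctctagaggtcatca
Hoxa7, chr6:52218524-52218823, minus strand: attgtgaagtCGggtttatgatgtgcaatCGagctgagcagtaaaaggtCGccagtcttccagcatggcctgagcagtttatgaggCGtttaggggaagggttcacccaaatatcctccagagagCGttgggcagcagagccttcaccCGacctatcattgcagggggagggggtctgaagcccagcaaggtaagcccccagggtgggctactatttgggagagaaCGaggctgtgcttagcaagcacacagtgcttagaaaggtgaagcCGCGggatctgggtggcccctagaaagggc
Hoxb4, chr11:96318017-96318316, plus strand: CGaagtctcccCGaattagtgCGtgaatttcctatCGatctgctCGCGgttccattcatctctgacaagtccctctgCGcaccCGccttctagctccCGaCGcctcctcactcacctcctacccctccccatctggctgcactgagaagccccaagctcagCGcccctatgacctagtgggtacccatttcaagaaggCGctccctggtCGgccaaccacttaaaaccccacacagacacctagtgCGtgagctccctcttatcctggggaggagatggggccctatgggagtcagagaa

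The Hoxa5 window held 29 CG dinucleotides, that of Hoxb4 14, that of Hoxa7 9 and that of Hoxd8 6, against a median of 14.5 over the 24 Hox windows and 7 over all 32851 windows of the table. The 3 genes shown that were higher in stromal than in luminal cells thus lie on both sides of the Hox median. The letters CAGGTG, an E-box bound by Snail family proteins, were searched on both strands and stood in 0 of the 24 Hox windows, against 20.2% of all windows. TATAAA stood on either strand in 4 of the 24 Hox windows and in 13.6% of all windows, and TGATTNAT, a form of the joint site of Hox and Pbx proteins, in 2 of 24 and in 3.22%. The counts say only which letters these windows hold.

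Detection differed between clusters and populations. Of the 53 probes, 20 were detected on no array and 6 on 1 or 2 arrays. Cluster A had 10 probes of 8 genes past the filter, cluster B 8 of 6, cluster C 6 of 5 and cluster D 3 of 3. Genes with no probe past it were Hoxa4, Hoxa6 and Hoxa11, Hoxb1, Hoxb6, Hoxb8 and Hoxb13, Hoxc8, Hoxc11, Hoxc12 and Hoxc13, and Hoxd1, Hoxd3, Hoxd10, Hoxd11, Hoxd12 and Hoxd13. Those genes include the highest-numbered members of clusters C and D, while Hoxa13 and the 10th members of clusters A and C passed.

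Of the 53 probes, 21, 16 and 11 were detected on the WT stromal arrays and 22, 16 and 14 on the null stromal arrays. WT luminal arrays had 10, 13 and 8, and WT basal arrays 17, 13 and 8. WT unsorted arrays had 20, 21 and 15, and null unsorted arrays 11, 12 and 16. Null luminal arrays had 11, 12 and 9. Null basal arrays had the fewest, with 9, 8 and 4. In cluster C, 4 of 11 probes were detected on all 3 WT stromal arrays and 1 on all 3 WT luminal arrays, whereas in cluster B these counts were 1 and 3 of 13. The plot of Hox probes by array shows these differences.

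**Figure D1:**
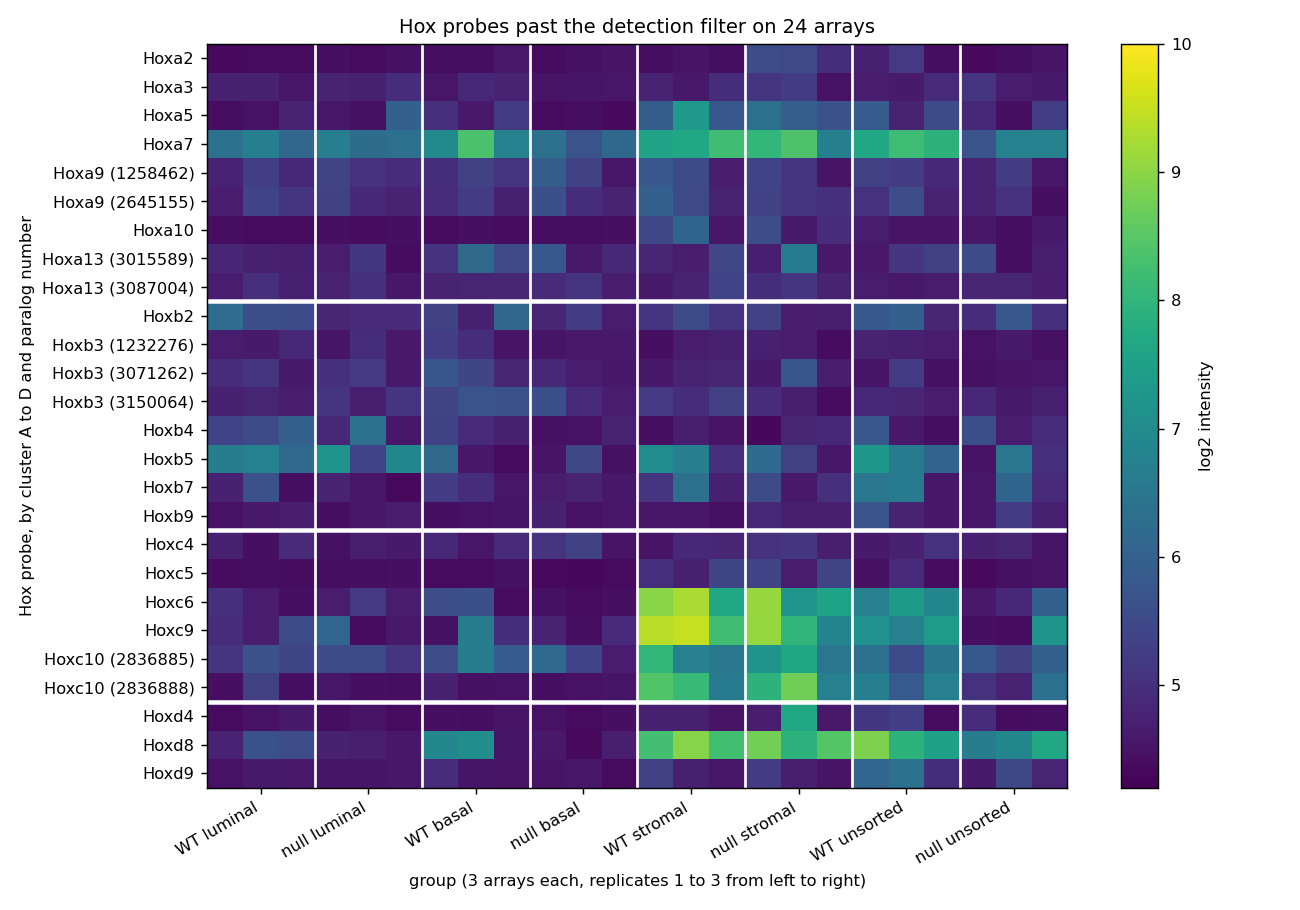
Log2 intensity (colour) of the Hox probes past the detection filter, less 1 not shown (rows, by cluster A to D and paralog number, with the end of the probe ID where a gene has several) on 24 arrays (columns, 8 groups of 3). Colours compare arrays within a row, not rows with each other. Hoxc6, Hoxc9, Hoxc10 and Hoxd8 are bright in stromal and WT unsorted columns and dark in most luminal and basal columns.

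Between sorted WT populations, the Hox genes that differed were chiefly those higher in stromal than in epithelial cells. Against luminal cells, 9 probes of 8 genes were higher in stroma (Hoxa5, Hoxa7, Hoxa10, Hoxc5, Hoxc6, Hoxc9, Hoxc10 with both probes, and Hoxd8) and 1 was lower (Hoxb4). These are 10 of 27 probes, where 22.6% of all 17878 tested probes passed, with 11.4% lower and 11.2% higher in luminal cells (limma, Benjamini-Hochberg adjusted p below 0.05). Against basal cells, 7 probes of 7 genes were higher in stroma and 0 lower, where 16.5% of all tested probes passed, 8.69% lower and 7.79% higher in basal cells. Without Slug, 8 of 27 probes were lower in luminal than in stromal cells (23.9% of all passed, 12.1% lower and 11.8% higher) and 9 were lower in basal cells (20.1%, 10.3% lower and 9.74% higher), with 0 higher in either. Of the 27 probes, 5 were detected on no luminal or basal array, so that they entered the test through stromal or unsorted cells. Hoxa10 and Hoxc5, counted above, and Hoxa2, counted in null cells, are among the 5. The counts, and the adjusted p of these genes, are thus a description of the members. Since these are bulk samples, fewer cells of a type and less RNA per cell cannot be told apart.

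By cluster, 5 of 6 tested cluster C probes were lower in WT luminal cells than in stroma, with a median log2 change of -2.35 over the 6. Of 10 cluster A probes 3 were lower, with a median of -0.36. Of 8 cluster B probes 0 were lower and 1 higher, with a median of 0.14, and of 3 cluster D probes 1 was lower. The median over all tested probes was 0.07 in the same comparison.

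Hoxc6, a middle member of cluster C, had log2 intensities of 8.97, 9.25 and 7.68 on the WT stromal arrays. It read 4.99, 4.66 and 4.44 in WT luminal and 5.56, 5.61 and 4.36 in WT basal cells. Its WT unsorted values were 6.74, 7.35 and 6.89. Stromal arrays lay above all epithelial arrays and unsorted arrays in between, with no overlap. The log2 change was -3.94 ± 0.46 for luminal over stromal (SE, n = 3 per group, adjusted p = 2.62e-06) and -3.46 ± 0.46 for basal over stromal (adjusted p = 1.28e-05). With the deposited intensities that carry no background subtraction the luminal change was -2.26, in the same direction and past the threshold, and the other named log2 changes shrank likewise.

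In null cells too the stromal arrays lay above all epithelial arrays for Hoxc6. It read 9.10, 7.23 and 7.57 in null stromal cells against 4.66, 5.17 and 4.63 in null luminal cells, while the null unsorted values of 4.59, 4.86 and 5.99 overlapped the luminal ones. In null basal cells it was detected on 0 arrays, and stromal cells were at least 8.09-fold higher (adjusted p = 6.19e-06). Here and below, "at least" sets the mean of the brighter group against the dim group's mean, in which each array counts with its lowest detected signal or with the probe's value, whichever is higher.

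Hoxc9, the next gene measured along cluster C, read 9.39, 9.50 and 8.22 in WT stromal cells. WT luminal arrays gave 4.95, 4.64 and 5.51, and WT basal arrays 4.46, 6.64 and 4.95. Basal replicate 2 stood above the other epithelial arrays but below every stromal array. Luminal cells were lower than stromal cells by a log2 change of -4.00 ± 0.68 (adjusted p = 0.000158) and basal cells by -3.68 ± 0.68 (adjusted p = 0.000492), the largest change of any tested Hox probe in each of these comparisons. In null cells stromal arrays gave 9.07, 8.0 and 6.81 and basal arrays 4.76, 4.41 and 4.92, a log2 change of -3.26 ± 0.68 (adjusted p = 0.00128).

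Hoxc10 has 2 probes that disagreed on epithelial cells. With ILMN_2836888, WT stromal arrays read 8.42, 8.12 and 6.57, WT luminal arrays 4.45, 5.29 and 4.45, and WT basal arrays 4.74, 4.46 and 4.47. On this probe no basal array detected the gene, and stromal cells were at least 6.93-fold higher than WT basal cells (adjusted p = 5.82e-05). ILMN_2836885 was detected on every WT epithelial array, with 5.57, 6.64 and 5.88 in basal against 8.04, 6.73 and 6.52 in stromal cells. The groups overlapped on it, and the basal change of -1.07 ± 0.42 did not pass (adjusted p = 0.0917). Against luminal cells both probes passed, at -2.98 ± 0.48 and -1.72 ± 0.42.

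Hoxc5, which precedes Hoxc6, was dim everywhere and was detected on 0 sorted epithelial arrays. With 4 stromal arrays and 1 unsorted array detecting it, it entered the test through the cells where it was higher. Its WT stromal values were 4.98, 4.71 and 5.42 and its WT luminal values 4.40, 4.42 and 4.39. Stromal cells were at least 1.14-fold higher than luminal (adjusted p = 0.0272) and at least 1.09-fold higher than basal cells (adjusted p = 0.0338). Both calls were lost in 5 of 6 leave-outs, with adjusted p up to 0.155 against luminal and 0.162 against basal cells, each without WT stromal replicate 3; they held without WT stromal replicate 2. They were also lost with median scaling and in a fit on the arrays compared alone. Hoxc4, at the other end of the cluster, had a range of 4.44 to 5.33 over all arrays and passed in 0 comparisons.

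Hoxd8 was the brightly detected member of cluster D. It read 8.26, 8.94 and 8.25 in WT stromal cells and 4.74, 5.66 and 5.58 in WT luminal cells. WT basal arrays split, with 6.89 and 7.07 in replicates 1 and 2 and 4.54 in replicate 3. Luminal cells were lower than stromal cells by -3.15 ± 0.49 (adjusted p = 5.18e-05) and basal cells by -2.32 ± 0.49 (adjusted p = 0.00166). The basal change was -1.50 without WT basal replicate 3 and still passed, and it did not pass when fitted on the arrays compared alone (adjusted p = 0.0815). In null cells Hoxd8 was detected on no luminal or basal array, and stromal cells were at least 11.3-fold higher than luminal (adjusted p = 6.16e-06) and at least 10.8-fold higher than basal cells (adjusted p = 4.60e-06).

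**Figure D2:**
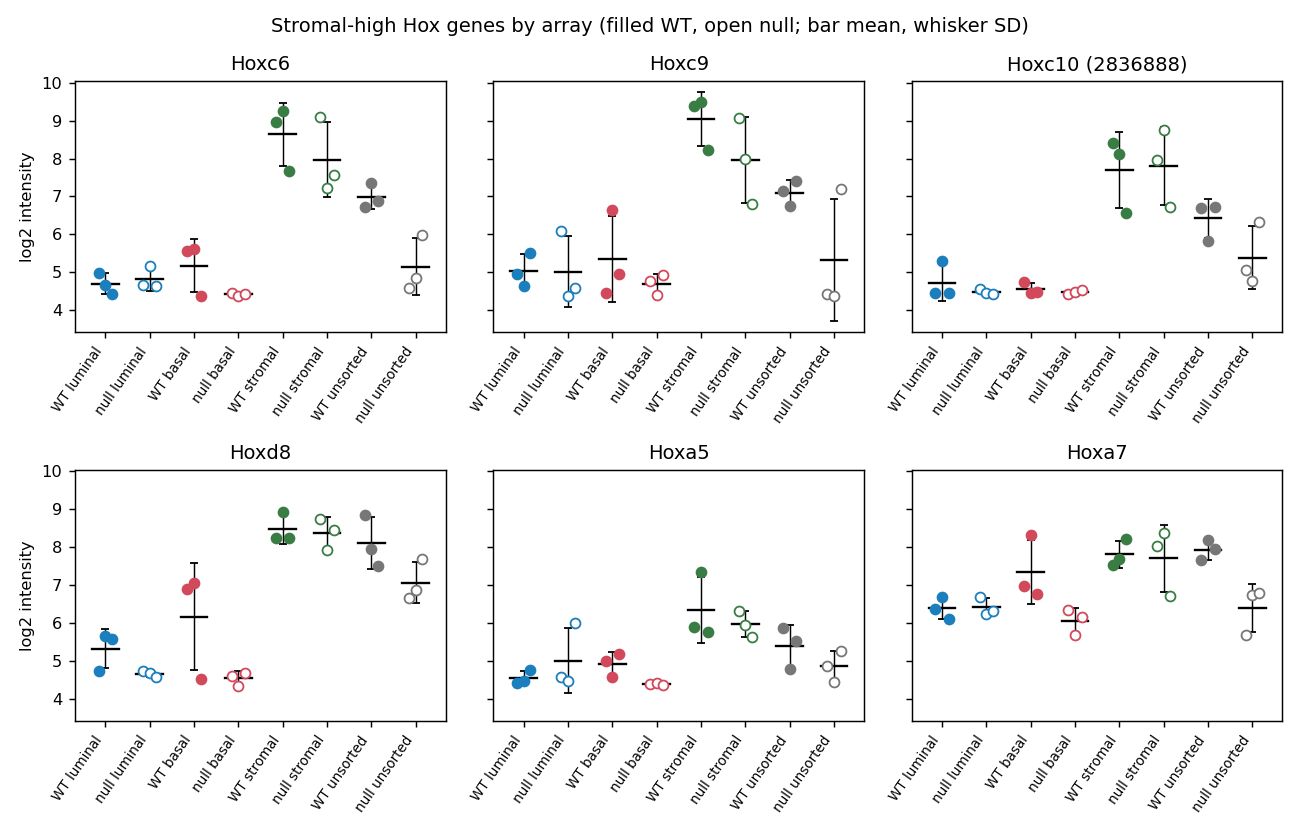
Log2 intensity by array of 6 Hox probes that were higher in WT stromal than luminal cells. Filled points are WT and open points null arrays, bars the mean and whiskers the SD of 3 arrays. Stromal points lie above luminal points in WT cells in each panel, Hoxd8 splits within WT basal cells, and null unsorted points lie below WT unsorted points for Hoxc6 and Hoxa7.

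In cluster A, Hoxa5 and Hoxa10 were higher in WT stromal than in WT luminal and basal cells. Hoxa7 was higher in WT stromal than in luminal cells, but not than in basal cells. Hoxa5, which in mice is known to act in lung and mammary development, read 5.90, 7.35 and 5.78 in WT stromal cells against 4.41, 4.48 and 4.76 in luminal cells, where no array detected it. Stromal cells were at least 2.81-fold higher than luminal cells (adjusted p = 0.00211). Basal arrays read 4.99, 4.59 and 5.18 and lay below the stromal arrays at -1.42 ± 0.40 (adjusted p = 0.0165). That change was -0.92 with adjusted p = 0.129 without WT stromal replicate 2, did not pass without WT basal replicate 2 (adjusted p = 0.0758), and did not pass in a fit on the arrays compared alone (adjusted p = 0.104). In null luminal cells replicate 3 read 5.99, within the range of the null stromal arrays, and the change there did not pass (adjusted p = 0.0875).

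Hoxa7 was detected on all 24 arrays. It read 7.54, 7.68 and 8.21 in WT stromal and 6.37, 6.70 and 6.11 in WT luminal cells, a log2 change of -1.42 ± 0.41 for luminal over stromal (adjusted p = 0.0155). The groups did not overlap, but the call was lost without WT luminal replicate 3 (adjusted p = 0.0625) or WT stromal replicate 3 (adjusted p = 0.0696). WT basal cells read 6.98, 8.33 and 6.76, a range that spans the stromal arrays, and did not pass against them (adjusted p = 0.543). Null basal cells read 6.34, 5.68 and 6.16 against 8.04, 8.38 and 6.70 in null stromal cells, and passed (-1.65 ± 0.41, adjusted p = 0.00598).

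Hoxa10 was measured by 1 of its 2 probes. It was detected on 0 epithelial arrays, and WT stromal arrays read 5.43, 6.07 and 4.56. All 4 arrays that detected it were stromal, so it entered the test only through the cells where it was higher. Stromal cells were at least 1.42-fold higher than luminal (adjusted p = 0.00989) and at least 1.36-fold higher than basal cells (adjusted p = 0.0153). Without WT stromal replicate 2 the adjusted p were 0.0758 and 0.118, and without WT stromal replicate 1 that against basal cells was 0.051. In fits on the arrays compared alone they were 0.134 and 0.196. In null cells the probe did not pass against luminal (adjusted p = 0.103) or basal cells (adjusted p = 0.112).

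Markers of several cell types moved with the stromal Hox genes. The mean log2 intensity of the 14 fibroblast markers was 11.01 to 11.22 on the 6 stromal arrays of both genotypes and 6.45 to 7.95 on the 12 luminal and basal arrays. Of 7 skeletal muscle markers tested, 5 were lower and 1, Mb, was higher in WT luminal cells against stroma. Their mean was 5.61 to 7.74 on stromal arrays and 4.59 to 5.06 on luminal and basal arrays, where Acta1, Myh4, Myl1 and Tnnt3, which encode parts of the contractile fibre, were detected in 0 of 6 WT arrays. Of 8 pericyte markers, 5 were lower in WT luminal and in WT basal than in stromal cells; their mean was 6.92 to 7.54 on stromal arrays and 5.40 to 6.30 on luminal and basal arrays, and Pdgfrb was detected on none of the latter. The part of these cells in the Hox levels was not tested.

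**Figure D3:**
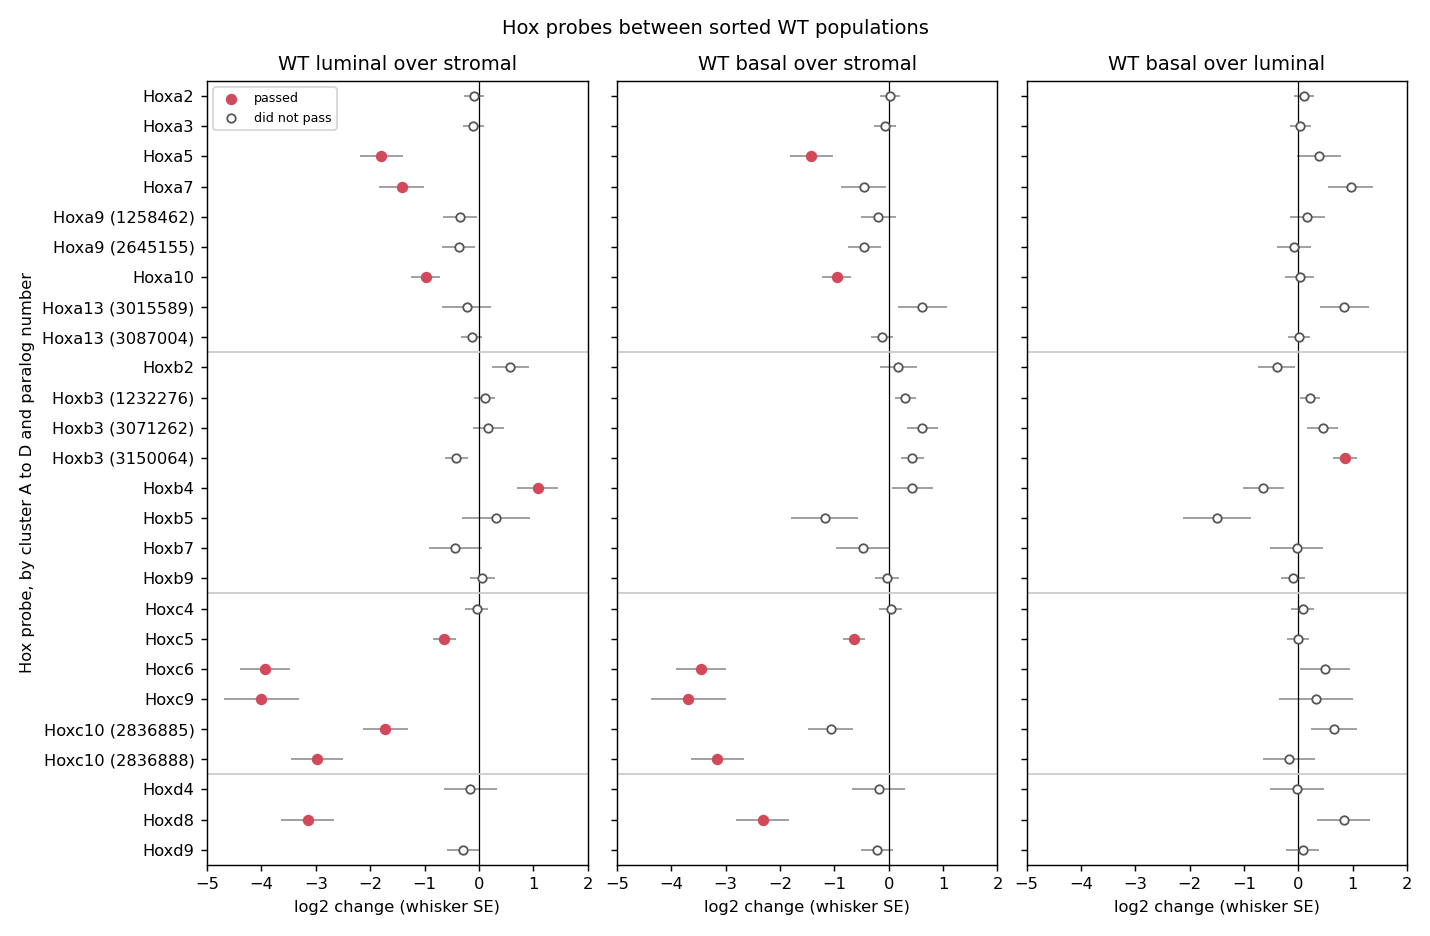
Log2 change of the tested Hox probes, less 1 not shown, between sorted WT populations, ordered by cluster and paralog number; whiskers are the SE of the fit, and filled points passed at an adjusted p below 0.05. In the comparisons with stromal cells the filled points of clusters A, C and D lie to the left of 0, Hoxb4 lies to the right, and between basal and luminal cells 1 Hoxb3 probe passed.

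Of the 8 tested cluster B probes 1 passed between WT stromal and epithelial cells, and 0 did in null cells; no test compared the clusters. It was Hoxb4, known for its role in blood stem cells. Hoxb4 read 5.38, 5.52 and 5.97 in WT luminal cells and 4.43, 4.69 and 4.51 in WT stromal cells, where it was detected on 0 arrays. Luminal cells were at least 1.65-fold higher (log2 change 1.08 ± 0.38, adjusted p = 0.0462). With the replicate number of the WT samples as a block the call was lost (adjusted p = 0.0555), as it was without any 1 of the 6 arrays, where adjusted p ran up to 0.158 without WT luminal replicate 3. Null luminal cells read 4.86, 6.32 and 4.57, overlapped the null stromal arrays and did not pass (adjusted p = 0.31).

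Between WT basal and luminal cells 1 of 27 Hox probes passed, where 13.6% of all tested probes did, 6.84% higher and 6.78% lower in basal cells. It was ILMN_3150064 of Hoxb3, which read 5.40, 5.70 and 5.64 in basal and 4.73, 4.80 and 4.64 in luminal cells, where it was detected on 0 arrays. Basal cells were at least 1.65-fold higher (adjusted p = 0.00932). The other 2 Hoxb3 probes had log2 changes of 0.21 ± 0.19 and 0.44 ± 0.29 and did not pass (adjusted p = 0.566 and 0.378). In null cells 0 of 27 passed by limma, where 10.1% of all tested probes did (5.63% higher, 4.51% lower). An unadjusted p below 0.05 was found for 3748 of the 17878 tested probes and for 1 Hox probe.

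That probe was Hoxb5, which is described here after its values were seen. WT luminal cells read 6.67, 6.76 and 6.19 and WT basal cells 6.20, 4.57 and 4.36. Null luminal cells read 7.19, 5.36 and 6.86 and null basal cells 4.51, 5.43 and 4.46. Basal replicate 1 in WT and replicate 2 in null cells reached the range of the luminal arrays. The log2 change for basal over luminal was -1.50 ± 0.62 in WT (adjusted p = 0.13) and -1.67 ± 0.62 in null cells (adjusted p = 0.104). In null cells it passed with the side of the unlabelled split as a term (adjusted p = 0.0392) and when null luminal replicate 2 was left out.

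Some Hox genes were detected on more unsorted than sorted arrays, and their values were chosen after they were seen. Hoxd9, one of the paralogs that act in the growth of the gland, read 6.09, 6.35 and 4.96 in WT unsorted cells. It read 5.35, 4.71 and 4.54 in WT stromal cells, 4.93, 4.52 and 4.50 in basal and 4.49, 4.62 and 4.60 in luminal cells. All 3 unsorted arrays detected it, against 1 stromal, 1 basal and 0 luminal arrays of WT cells. Hoxb9 was detected on 2 WT unsorted arrays, at 5.73 and 4.79, and on 0 sorted WT arrays, and Hoxd4 was likewise detected on 2 unsorted and 0 sorted WT arrays. No test of unsorted against sorted cells was made. On the WT unsorted arrays the 13 endothelial markers had means of 8.40, 8.21 and 7.23, against 5.35 to 7.39 on sorted WT arrays. The 10 leukocyte markers read 7.09, 7.02 and 6.78 there, against 4.80 to 5.76 on sorted WT arrays, and the part of these cells in the Hox levels was not tested.

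The null effect was compared within each population. By limma 0 of 27 Hox probes passed in basal cells, where 0.666% of all tested probes did (0.352% higher, 0.313% lower). In luminal cells 0 passed (0.00559% of all, that 1 probe lower), in stromal cells 0 (0.0224%, with 0.00559% higher and 0.0168% lower) and in unsorted cells 0 (0.257%, with 0.0392% higher and 0.218% lower). At an unadjusted p below 0.05 there were 4, 1, 2 and 7 Hox probes in the same order, and 1348, 612, 811 and 1984 of the 17878 tested probes. In the differences between null effects (basal minus luminal, basal minus stromal, luminal minus stromal) 0 Hox probes passed, where 0.151% (0.129% higher, 0.0224% lower), 0.145% (0.112% higher, 0.0336% lower) and 0.00559% (all higher) of all tested probes did. At an unadjusted p below 0.05 these had 2, 3 and 2 Hox probes, and 716, 939 and 519 of the 17878 tested probes. The median Hox change was -0.24 in basal, -0.01 in luminal, -0.02 in stromal and -0.35 in unsorted cells, and that of all tested probes lay between 0.00 and 0.02. Null and WT arrays lay apart without overlap for 2 of 27 Hox probes in basal, 3 in luminal, 3 in stromal and 4 in unsorted cells. With 3 arrays per group such separation also arises without a difference. The share over all probes was not counted, so a lack of overlap below only describes the arrays.

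The intervals leave room for sizeable differences. In stromal cells, where Hox genes were bright, the null change was -0.10 for Hoxd8 (95% interval -1.11 to 0.92), -0.67 for Hoxc6 (-1.63 to 0.29), -1.07 for Hoxc9 (-2.50 to 0.35) and 0.10 for Hoxc10 by ILMN_2836888 (-0.90 to 1.10). In luminal cells that of Hoxa7 was 0.02 (-0.84 to 0.88). The number of arrays limits this precision.

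**Figure D4:**
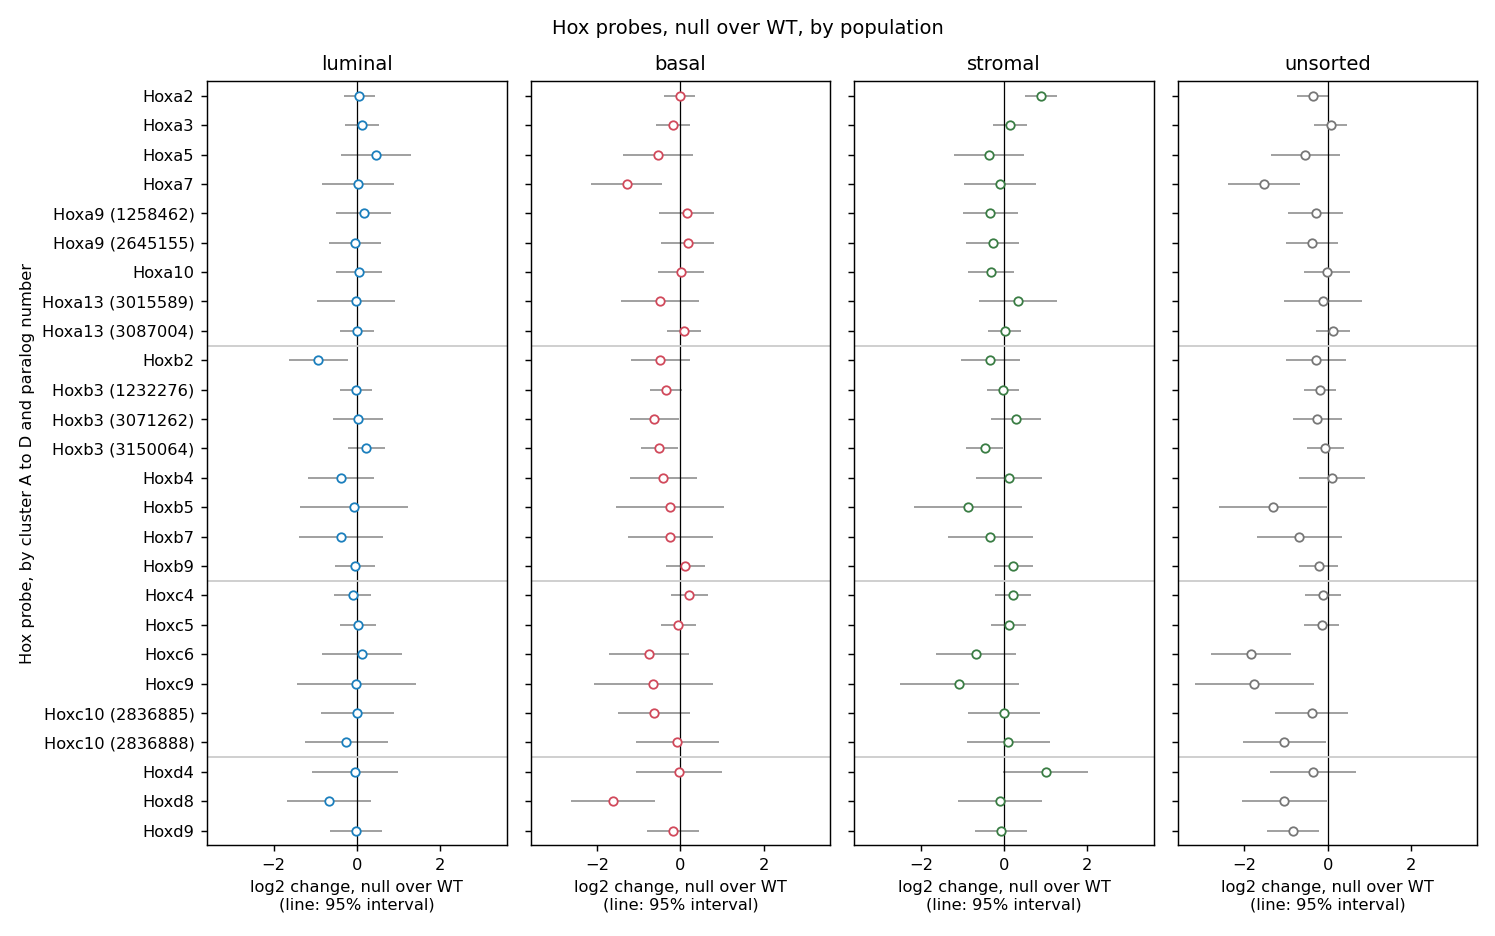
Log2 change of null over WT for the tested Hox probes, less 1 not shown, in luminal, basal, stromal and unsorted cells, ordered by cluster and paralog number; lines are 95% intervals of the fit for single probes, not adjusted over probes. No probe passed at an adjusted p below 0.05; the points farthest to the left are Hoxd8 and Hoxa7 in basal cells and Hoxc6, Hoxc9 and Hoxa7 in unsorted cells, and Hoxa2 and Hoxd4 lie to the right in stromal cells.

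In basal cells the lowest adjusted p was that of Hoxd8. Its 3 null basal arrays read 4.60, 4.35 and 4.69, all undetected, against 6.89, 7.07 and 4.54 in WT. WT replicate 3 lay within the null range and the other WT arrays far above it. The log2 change was -1.62 ± 0.49 (adjusted p = 0.202). Without WT basal replicate 3 it was -2.43 and passed (adjusted p = 0.00134), as it did with array weights (adjusted p = 0.00614), where 1.33% and 4.97% of all tested probes passed. By side of the unlabelled split it was -2.37 on the side of WT replicates 1 and 2 and -0.02 on the other.

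Markers of several other cell types also differed between these arrays. The mean of 13 endothelial markers was 7.39, 6.65 and 5.44 on the WT basal arrays and 4.97, 5.21 and 5.30 on the null basal arrays, with 13 of 13 changes negative, 1 of them past the threshold (Flt1, a VEGF receptor gene). On null basal arrays 6 of the 13, Cdh5, Eng, Flt1, Kdr, Tek and Tie1, were detected on 0 arrays. The mean of the 14 fibroblast markers was 7.71, 7.95 and 7.54 in WT basal and 6.45, 6.97 and 6.93 in null basal cells, where Dpp4 and Mfap5 were undetected, and 2 of 8 Schwann cell markers passed as lower, Cdh19 among them. The mean of 8 adipocyte markers was 6.65, 5.84 and 5.48 in WT basal and 5.07, 5.43 and 5.46 in null basal cells, where Cidec, Lep and Lipe were undetected; 7 of 8 changes were negative and Lep, the leptin gene, passed as lower (-1.31 ± 0.29, adjusted p = 0.0398). That of 8 pericyte markers was 6.30, 5.82 and 5.73 against 5.54, 5.68 and 5.40, with 7 of 8 changes negative and 0 past the threshold. The part of these cells in the Hoxd8 difference was not tested.

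For Hoxa7 in basal cells the null arrays lay below the WT arrays without overlap, at 6.34, 5.68 and 6.16 against 6.98, 8.33 and 6.76. The log2 change was -1.29 ± 0.41 (adjusted p = 0.254), and it was -1.31 and -0.84 on the sides of the split. It passed with array weights (adjusted p = 0.0265). Without WT basal replicate 2 it was -0.81, and it passed in 0 of the 6 leave-outs.

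In unsorted cells the 3 largest null changes were those of Hoxc6, Hoxc9 and Hoxa7, and none passed. Next came Hoxb5 at -1.31, which did not pass either. Hoxb5 also passed in no comparison of stromal with luminal or basal cells. Hoxc6 read 4.59, 4.86 and 5.99 in null unsorted against 6.74, 7.35 and 6.89 in WT unsorted cells, without overlap (log2 change -1.85 ± 0.46, adjusted p = 0.112). Hoxa7 read 5.67, 6.75 and 6.78 against 7.66, 8.19 and 7.94, also without overlap (-1.53 ± 0.41, adjusted p = 0.145). Hoxc9 read 4.43, 4.38 and 7.19 against 7.13, 6.74 and 7.41, so that null replicate 3 lay within the WT range (-1.76 ± 0.68, adjusted p = 0.322). Without null unsorted replicate 3, where 3.67% of all tested probes passed, these did too, Hoxc6 at -2.27 (adjusted p = 0.0103), Hoxc9 at -2.69 (adjusted p = 0.0187) and Hoxa7 at -1.72 (adjusted p = 0.0432). All null unsorted arrays and 1 WT unsorted array lie on 1 side of the unlabelled split, where the changes were -1.75 for Hoxc6, -2.08 for Hoxc9 and -1.54 for Hoxa7. Hoxd9 was at -0.83 (adjusted p = 0.283) and passed without WT unsorted replicate 3 (-1.25, adjusted p = 0.039), but on the side of that array its change was 0.01.

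Marker lists differed between the unsorted arrays as well. The mean of the 14 fibroblast markers was 9.90, 9.86 and 10.54 on WT unsorted arrays and 8.28, 8.62 and 10.39 on null unsorted arrays, with 14 of 14 changes negative, none past the threshold, and 0 of the 14 undetected on all arrays of either group. Leukocyte markers were at 7.09, 7.02 and 6.78 in WT and 5.25, 5.34 and 6.44 in null cells, and 3 of 10 passed as lower (Csf1r, C1qa and C1qb). Endothelial markers were at 8.40, 8.21 and 7.23 in WT and 7.13, 7.24 and 7.34 in null cells, with 0 of 13 past the threshold. Pericyte markers were at 7.33, 6.95 and 6.76 in WT and 6.49, 6.48 and 6.27 in null cells, with 8 of 8 changes negative and 0 past the threshold. Adipocyte markers were at 7.27, 6.79 and 5.98 in WT and 5.65, 6.16 and 6.41 in null cells, with 7 of 8 changes negative and 0 past the threshold. Null replicate 3 had the highest fibroblast and leukocyte marker means of the null unsorted arrays, and the highest Hoxc6 and Hoxc9. Its fibroblast mean lay within the WT range, as did its Hoxc9, but its Hoxc6 and Hoxa7 lay below every WT array. The part of these cells in the Hox levels was not tested.

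**Figure D5:**
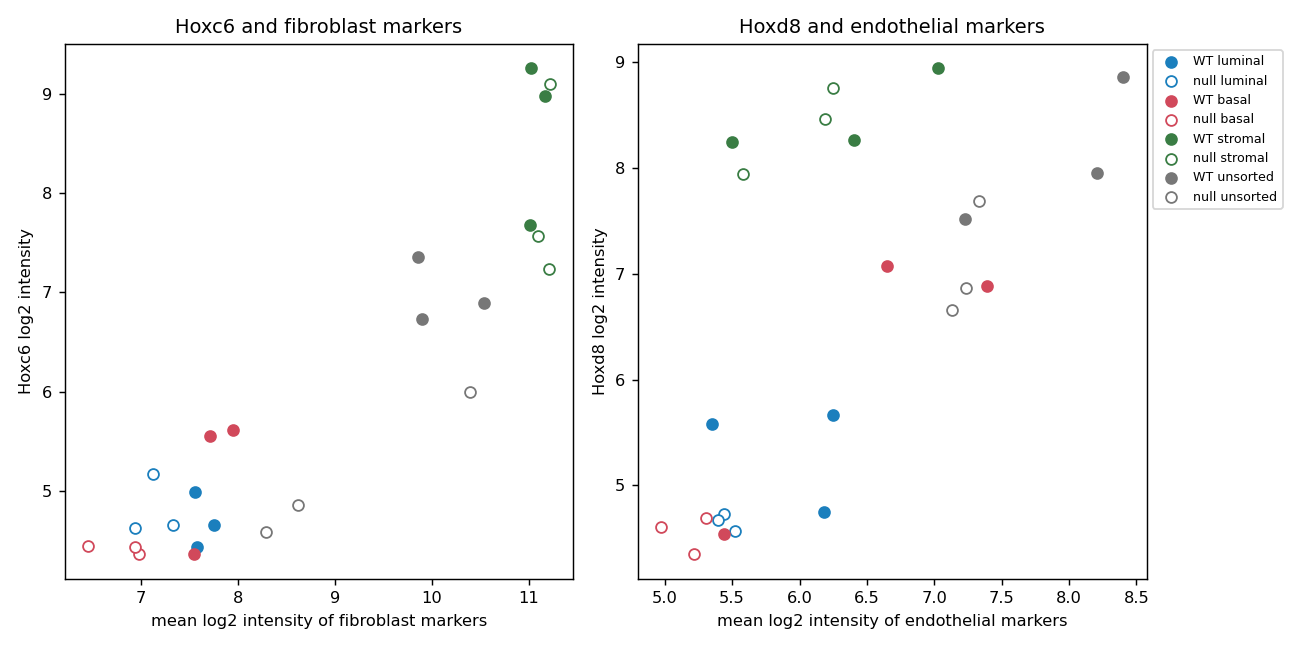
Left, Hoxc6 log2 intensity against the mean log2 intensity of 14 fibroblast markers on each of 24 arrays; right, Hoxd8 against the mean of 13 endothelial markers. Filled points are WT and open points null arrays, coloured by population. Hoxc6 reads 5.99 to 9.25 at fibroblast means of 9.86 or more and 4.36 to 5.61 below, and the WT basal arrays with high Hoxd8 are those with endothelial means of 6.65 and 7.39; the stromal arrays have high Hoxd8 at endothelial means of 5.50 to 7.03.

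In stromal cells Hoxa2, the second member of cluster A, stood out after its values were seen. It read 5.58, 5.49 and 4.96 in null stromal cells and 4.43, 4.51 and 4.42 in WT stromal cells, where it was detected on 0 arrays. The groups did not overlap and stood at least 1.36-fold apart, but the change did not pass over all probes tested (log2 change 0.89 ± 0.18, adjusted p = 0.198). It passed without null stromal replicate 3 (adjusted p = 0.0264) and when all probes of the array were tested with no detection filter (adjusted p = 0.0328), where 9 probes of the array passed in each case. Within null cells stromal cells were at least 1.37-fold higher than luminal (adjusted p = 0.000714) and at least 1.31-fold higher than basal cells (adjusted p = 0.000998), the latter not with median scaling (adjusted p = 0.102). The second Hoxa2 probe was detected on 0 of 24 arrays. Skeletal muscle markers also differed between stromal arrays, at 6.82, 6.67 and 5.61 in WT and 7.74, 6.05 and 6.42 in null cells, and their part was not tested.

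Some members varied with the sample number of the labels (3 numbers per genotype, 6 in all), and these were chosen after their values were seen. The share of the sum of squares that lay between sample numbers was 51.8% and 43.3% for the 2 tested Hoxa9 probes, and 44.6% for Hoxb7, while the medians over all tested probes were 20.6% between sample numbers and 32.5% between the 4 populations. Some genes higher in stroma lay at the other end, with 83.3% of the sum of squares of Hoxc10 (ILMN_2836888), 79.6% of Hoxc6 and 79.6% of Hoxd8 between populations. For Hoxa7 that share was 36.8%. These shares are descriptions and include the genotype within the sample number.

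Genes that work with or on Hox genes were counted from lists, to be read against the share of all tested probes that passed, 22.6% in WT luminal over stromal, 16.5% in WT basal over stromal and 13.6% in WT basal over luminal cells. Of 9 cofactor genes, whose products bind DNA beside Hox proteins, 8 were tested. Meis2 was lower in WT luminal (-3.77 ± 0.50, adjusted p = 9.08e-06) and basal cells (-3.53 ± 0.50, adjusted p = 2.26e-05) than in stromal cells. Pknox2 was higher in WT basal than luminal cells (2.19 ± 0.28) and Meis1 lower (-1.67 ± 0.54, adjusted p = 0.0426). In all, 2 of the 8 were lower in luminal and 1 in basal than in stromal cells, and 0 higher, near the shares of all probes. Basal over luminal cells gave 2 higher and 1 lower of the 8, where 13.6% of all tested probes passed.

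Polycomb and trithorax genes, which hold Hox clusters off or on, passed at shares near those of all probes or below. Of 19 Polycomb genes 15 were tested, and WT luminal over stromal cells gave 3 higher and 0 lower, where 22.6% of all probes passed, such as Bmi1 (0.83 ± 0.26), which was also lower in basal than luminal cells (-1.12 ± 0.26). Mtf2 was 0.94 ± 0.32 in luminal over stromal cells and Phc2 0.79 ± 0.23 in basal over stromal cells. Of 12 trithorax and H3K27 demethylase genes 9 were tested, and 1 passed between WT luminal and stromal cells, the demethylase gene Kdm6b (-1.38 ± 0.23, adjusted p = 0.000114).

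Retinoic acid is a known inducer of Hox genes, and 15 of 21 genes of its pathway and of the Cdx regulators were tested. Of these, WT luminal over stromal cells gave 4 lower and 1 higher, where 22.6% of all tested probes passed. Basal over stromal cells also gave 4 lower and 1 higher, where 16.5% did. Aldh1a1, which makes retinoic acid, was at -3.12 ± 0.44 for luminal and -2.44 ± 0.44 for basal over stromal cells. Aldh1a3, another such enzyme, was lower in basal than luminal cells (-3.24 ± 0.30).

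Genes next to the clusters and other patterning genes were counted in the same way. Of 16 neighbouring genes 8 were tested, and 0 passed between WT luminal and stromal cells by limma (22.6% of all probes did). An unadjusted p below 0.05 was found for 1 of the 8 (Lnpk) and for 5962 of the 17878 tested probes. Hnrnpa1, beside cluster C and with many near copies in the genome, was higher in basal than stromal cells (0.89 ± 0.28, adjusted p = 0.0339), and Skap2, beside cluster A, was lower in basal than luminal cells (-0.67 ± 0.17, adjusted p = 0.0107). Of 32 other patterning transcription factor genes 22 were tested, and 12 fell and 4 rose from stromal to WT luminal cells, with 10 lower and 4 higher in basal cells, where 22.6% and 16.5% of all tested probes passed. Stromal cells were at least 11.6-fold higher than luminal cells for Tbx15, and Prrx1 was at -3.67 ± 0.50 for luminal over stromal cells. Irx4 was detected on 0 WT stromal arrays, and basal cells were at least 6.95-fold higher. In null over WT, 0 of the 77 tested genes of these 6 lists passed by limma in any population. An unadjusted p below 0.05 was found for 4 in basal, 2 in luminal, 3 in stromal and 11 in unsorted cells. Over all 17878 tested probes these counts were 1348, 612, 811 and 1984 in the same order.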

How the data were processed

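RNA of 24 samples was measured on Illumina bead arrays. One deposited table held, per its header, a raw intensity and a detection p-value for each of 25697 probes and each array. A second deposited table held intensities that matched quantile normalization of the first table without background subtraction (largest log2 difference 0.0124) and was tried as a substitute. Neither the scanner software nor a genome build is given in the sources used here. Of the per-sample columns, 0 were left unused.

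Raw intensities were background-corrected with normexp, using negative control values implied by the detection p-values (798 probes), quantile-normalized and log2-transformed with an offset of 16 (neqc). Probes detected at p below 0.05 on at least 3 of 24 arrays (17878) were fitted together over the 8 groups with limma 3.58.1 (lmFit, eBayes) in R 4.3.3, with Benjamini-Hochberg adjustment over all of them and a threshold of 0.05. Precision is limited by the number of arrays, with a median SE of 0.301 for a log2 change between groups over all tested probes. The SE of single Hox probes is given with their changes. The procedure was tested on simulated data.

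Gene names are the array's own. Against a RefSeq table (GRCm38.p6) 20733 probes had a current symbol, 3872 matched a synonym, 1092 matched nothing and 36 had symbols turned into dates or numbers. Hox genes and lists were chosen with earlier results of these data known. Full values were given for at most 12 Hox genes, those past the threshold in null over WT and those with the largest change past it between sorted WT populations (10 genes), and for the top 3 genes of each list. Other genes with values were chosen after these were seen. Values of some members and list genes are not reported here.

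Samples with the same label prefix (W1 to N3) deviated together in the sorted WT populations (r of 0.175 to 0.408). They did so less evenly in null cells (0.0798 to 0.334). For same-numbered WT and null samples r ran from -0.226 to 0.291. In the sorted populations it was positive for replicates 1 and 3 (0.155 to 0.291) and negative for replicate 2 (-0.226 to -0.172). The main fit had no block. As an alternative, the prefix was a block in the comparisons within a genotype and in the differences between null effects. In null over WT the number, or the prefix as a random block, was used instead. Alternatives were the second table, median scaling, no or a stricter detection filter, 1 probe per gene, the compared arrays alone, array weights, each array left out, the side of the unlabelled split as a term, and the replicate number as a block (statmod 1.5.0 for a random block).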

Additional observations from a re-analysis of the deposited data

How the results depend on the processing

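The limits lie in the size of the groups and in dim probes. The 56 changes followed were all Hox changes past the threshold, and those in null over WT or between null effects at an unadjusted p below 0.05. Over 878 alternatives of these, 816 kept direction and side of the threshold, many of them changes that passed in neither fit. The call was lost in 49 and gained in 13, and 0 turned direction. Hoxc6, Hoxc9 and Hoxc10 (ILMN_2836888) against stroma held throughout. Array weights gave 3 Hox probes past the threshold in null over WT basal cells, 3 in unsorted cells and 2 in WT basal over luminal cells, against 0, 0 and 1; calls over all probes went from 119 to 889, 46 to 475 and 2434 to 3539. No detection filter gave 1 in null over WT stromal cells (all probes 4 to 9), a fit on the compared arrays alone gave 3 in WT basal over stromal cells against 7 (2946 to 1727), and the side of the unlabelled split as a term gave 1 in null basal over luminal cells (1812 to 2422). The cause was not tested, other than that the compared arrays alone leave fewer samples. Leaving out 1 array in turn gave 0 to 1 probes in null over WT basal and stromal cells, 0 in luminal and 0 to 3 in unsorted cells, where all-probe calls rose to 656 with the 3. It gave 1 to 2 in WT basal over luminal, 5 to 7 in WT basal over stromal and 7 to 8 in WT luminal over stromal cells, against 10. In null cells these ranges were 0 to 1, 9 to 11 and 7 to 8, and 0 for the differences of null effects. With the replicate number as a block, WT counts were 1, 7 and 9, null counts 0, 9 and 8 and null over WT counts 0 in every population. Among the 56 changes the block altered no call other than Hoxb4 (adjusted p = 0.0555 by limma). Median scaling moved the median of all probes in null over WT unsorted cells from 0.018 to 0.163, and the negative Hox changes named there stayed negative.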

Other observations

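Single arrays carried Hox genes that the rest of their group lacked, and these values were picked after they were seen. Hoxd4 read 7.69 in null stromal replicate 2 against 4.64 and 4.60 in the other null stromal arrays and 4.37 to 5.27 on the other 21 arrays. On the same array a Hoxa13 probe (ILMN_3015589) read 6.61, against 4.69 and 4.59 in the other null stromal arrays. Hoxb2 read 6.28, 5.60 and 5.50 in WT luminal cells and 4.83, 4.89 and 4.89 in null luminal cells, without overlap, and did not pass (log2 change -0.92, adjusted p = 1.00 by limma with Benjamini-Hochberg adjustment).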
